A study of Homo sapiens with 4 samples.

Results

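The genes described here make cholesterol or keep its amount in the cell under control. There are 34 of them, listed by symbol for their place in the pathway, though chosen with earlier results of these data known. All 34 were found among the 20263 genes of the count table by the symbol of their human Ensembl identifier. They comprise 19 enzymes of cholesterol synthesis, 7 parts of the SREBP machinery, 3 genes of sterol transport inside the cell, and 5 genes of the LXR arm (3 targets and 2 receptors). The cells were HCT116, an established human colon cancer line, grown in medium with 10% fetal bovine serum and kept 24 h with the solvent DMSO (the controls) or with the compound N_12. Each group was measured in 2 libraries of mRNA. N_12 is described by the series title as a derivative of the kinase inhibitor nilotinib, its dose is not stated in the labels, and the treatment tag of both N_12 samples carries another code (HJJ_3_5). The labels do not say whether replicates were separate cultures, so p-values measure only the spread between these 4 libraries, which may be technical.

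Cells build cholesterol from acetyl-CoA through mevalonate, the isoprenoid units and squalene. The transcription factor SREBP2 (gene SREBF2) switches on most enzymes of this route when sterols in the endoplasmic reticulum run low: the escort SCAP carries it to the Golgi, where the proteases encoded by MBTPS1 and MBTPS2 release its active part, and INSIG proteins hold SCAP back when sterols are plentiful. When oxysterols accumulate, the nuclear receptors LXR alpha (NR1H3) and LXR beta (NR1H2) switch on the exporters ABCA1 and ABCG1 and the ubiquitin ligase MYLIP, which lowers lipoprotein uptake.

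The promoter sequences below show what the members described most closely carry just before their start sites: the called pair INSIG1 and INSIG2, HMGCS1 and STARD4, the other members with means more than 2-fold lower in N_12, and SREBF2, where the searched window held an exact sterol regulatory element. Each is the 250 bases before the annotated start of transcription in RefSeq (GRCh38.p14), 5′ to 3′ on the strand of the gene, and where a gene had several starts the most upstream was taken. Capitals mark the sterol regulatory element TCACNCCAC, to which SREBP binds, and the CCAAT box (CCAAT, or ATTGG on the other strand), to which its partner NF-Y binds. The positions are chr7:155297628-155297877 (plus strand) for INSIG1, chr2:118088221-118088470 (plus strand) for INSIG2, chr5:43313413-43313662 (minus strand) for HMGCS1, chr5:111512536-111512785 (minus strand) for STARD4 and chr22:41832855-41833104 (plus strand) for SREBF2.
INSIG1: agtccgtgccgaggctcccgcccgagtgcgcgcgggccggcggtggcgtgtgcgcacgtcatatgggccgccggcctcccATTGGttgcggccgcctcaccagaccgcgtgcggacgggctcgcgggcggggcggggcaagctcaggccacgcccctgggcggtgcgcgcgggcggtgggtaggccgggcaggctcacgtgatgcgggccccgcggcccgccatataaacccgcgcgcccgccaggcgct
INSIG2: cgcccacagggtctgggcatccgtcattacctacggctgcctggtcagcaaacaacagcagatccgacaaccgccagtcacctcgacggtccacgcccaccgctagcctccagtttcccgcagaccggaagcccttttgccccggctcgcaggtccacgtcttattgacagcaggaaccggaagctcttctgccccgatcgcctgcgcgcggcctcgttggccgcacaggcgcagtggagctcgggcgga
HMGCS1: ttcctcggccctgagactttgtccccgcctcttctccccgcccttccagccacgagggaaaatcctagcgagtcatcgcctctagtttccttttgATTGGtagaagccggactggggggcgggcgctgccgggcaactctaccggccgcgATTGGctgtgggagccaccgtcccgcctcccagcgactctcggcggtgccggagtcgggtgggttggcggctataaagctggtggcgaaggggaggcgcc
STARD4: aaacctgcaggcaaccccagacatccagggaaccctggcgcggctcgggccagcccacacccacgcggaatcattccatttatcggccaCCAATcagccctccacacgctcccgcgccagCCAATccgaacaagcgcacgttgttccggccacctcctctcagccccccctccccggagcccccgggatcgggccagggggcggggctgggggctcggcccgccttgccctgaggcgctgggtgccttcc
SREBF2: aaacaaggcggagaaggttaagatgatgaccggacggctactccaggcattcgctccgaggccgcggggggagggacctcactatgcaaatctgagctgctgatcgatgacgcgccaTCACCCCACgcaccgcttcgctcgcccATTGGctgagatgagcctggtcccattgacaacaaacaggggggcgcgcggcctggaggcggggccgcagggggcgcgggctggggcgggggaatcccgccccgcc

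RefSeq promoters of 300 bases (250 before to 50 after the start) were found for 30 of the 34 members, as 40 entries; ACAT2, SQLE, FDFT1 and ABCG1 were not searched. Searched on both strands, TCACNCCAC was present in 1 member entry, that of SREBF2, where it begins 133 bases before the start and is followed by a CCAAT box that begins 106 bases before it. The element was held by 1.13% of all 35116 RefSeq promoters of this length. With up to 1 mismatch at a fixed base, a search added after the exact one, it was found for 12 of the 30 genes. By entry it was found in 16 of 40, against 24.5% of all promoters. A CCAAT box on either strand was present for 19 of the 30 genes, in 21 of 40 entries, against 34.6% of all promoters; INSIG1, HMGCS1 and STARD4 had one and neither entry of INSIG2 did. The GC box GGGCGG, a site of SP1, was present for 26 genes, in 33 of 40 entries, and in 45% of all promoters or 56.8% of those of genes in the count table. For the other motifs these 2 shares were close where the motif was common (34.6% and 34.8% for the CCAAT box). The LXR element, AGGTCA repeated in the same direction after 4 free bases, was found in no member entry and in 0.0199% of all promoters. A form with the first base of each repeat left free was found in no member entry and in 0.0854%. Unlike the sterol regulatory element, the LXR element was not searched with mismatches at its fixed bases. Less exact LXR elements, in ABCA1 or other members, would therefore be missed, and their absence is not shown. These are matches of letters in a short window and do not show binding.

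N_12-treated cells had less mRNA of both INSIG genes, where a change in every cell and a change in some of the cells cannot be told apart in bulk samples. INSIG1 and INSIG2, the sterol sensors that retain SCAP, fell 2.13-fold and 2.87-fold. HMGCS1, the enzyme that makes HMG-CoA, and STARD4, a carrier that moves sterol between membranes, stood 2.20-fold and 2.12-fold lower in the N_12 means without passing the test. Of the 19 synthesis genes 16 had a negative log2 fold change (49% of all tested genes). Of the 5 LXR genes 4 had a positive one (7190 of all 14105 tested genes). None of these 24 passed the test. edgeR's quasi-likelihood test over 14105 genes, with Benjamini-Hochberg adjustment and a threshold of 0.05, called 2 of the 34 members lower and 0 higher, against 1.43% of all tested genes called lower, 0.822% called higher and 2.25% called in either direction. All 34 members had enough counts to be tested. At an unadjusted p under 0.05, 12 members lay lower (10.8% of all tested genes) and 3 higher (11% of all tested genes). DESeq2 called 8 members, all lower (4.61% of all tested genes), and limma-voom 2, both lower (0.596%).

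**Figure D1:**
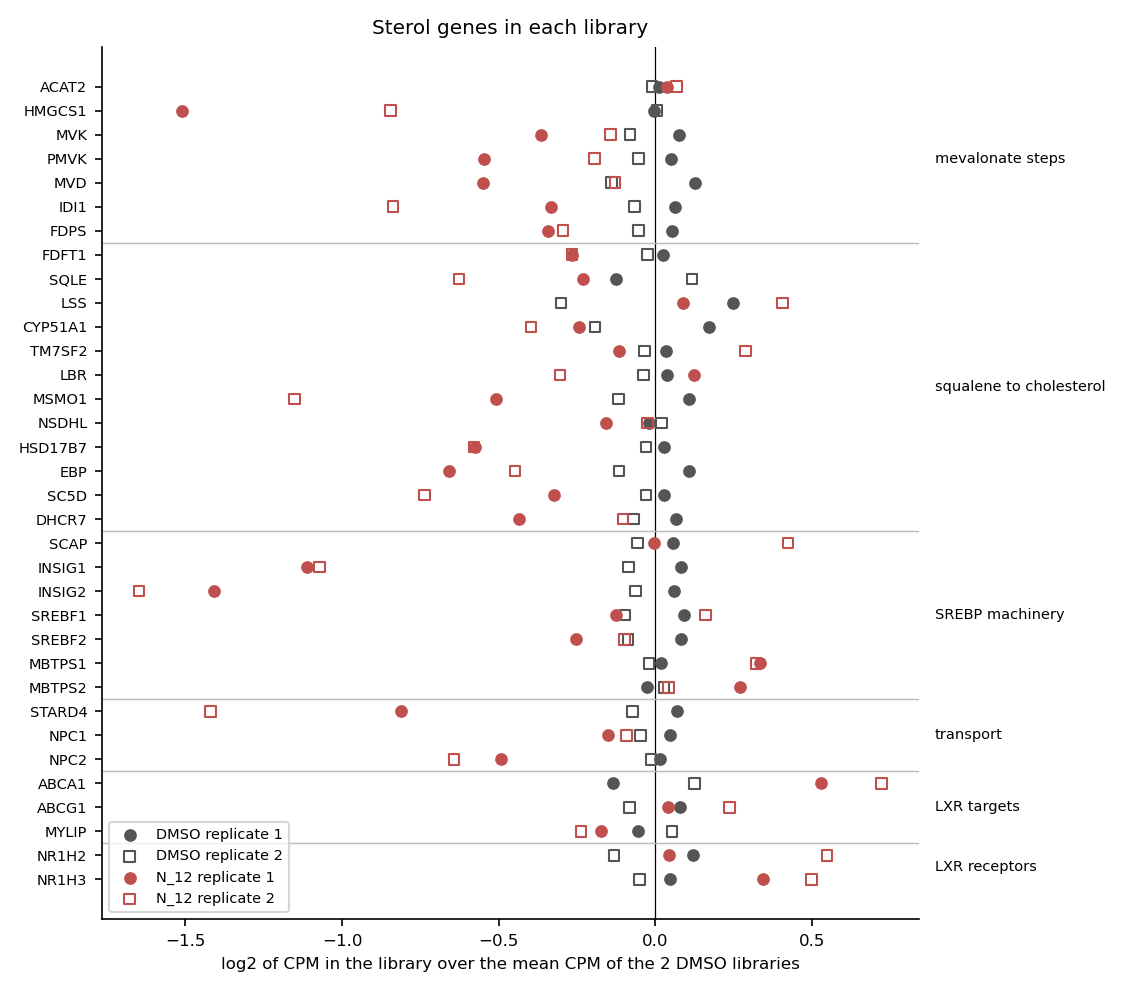
Each point is 1 library; the x axis gives log2 of its CPM over the mean of the 2 DMSO libraries and the y axis lists the 34 genes by role. Both N_12 points of INSIG2 lie left of both of INSIG1, and those of HMGCS1, STARD4 and MSMO1 are spread more widely to the left of DMSO; those of ABCA1 and NR1H3 lie to the right of both DMSO points.

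Counts per library totalled 29769568 to 31120459 in DMSO and 39865327 to 41717938 in N_12, and levels are given as CPM (counts relative to the library total, which was scaled by TMM, and so not corrected for gene length). Of 8 markers of colon epithelium 6 were at 1 CPM or more in every library, and VIL1 and CDH17 were not. The summed level of these 8 was 4075 to 4607 CPM in DMSO and 3351 to 3694 CPM in N_12, a sum carried by KRT8 and KRT19; its part in the results was not tested. Within the list EPCAM, CDH1, KRT8 and KRT19 had log2 fold changes of -0.42, -0.52, -0.36 and -0.32, and edgeR called none of them. CDX2 went the other way, at 13.6 and 14.3 CPM in DMSO and 22.1 and 20.7 CPM in N_12 (0.62, adjusted p = 0.0926 by edgeR). KRT18 had a log2 fold change of 0.01. Of 8 fibroblast markers COL1A1 alone passed 1 CPM in every library, 3 (COL1A2, DCN, LUM) were at 0 throughout, and the sums were 61.2 to 65.0 CPM in DMSO and 55.5 to 60.4 CPM in N_12. No leukocyte (7) or endothelial (5) marker reached 1 CPM in every library, and PTPRC, CD3E and TYROBP were at 0 in all 4. The summed leukocyte level was 0.748 to 1.41 CPM in DMSO and 1.23 to 1.38 CPM in N_12, and the endothelial one 1.46 to 1.61 CPM in DMSO and 0.878 to 2.45 CPM in N_12.

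INSIG1 (ENSG00000186480) was present at 584 and 519 CPM in DMSO replicates 1 and 2, and at 255 and 262 CPM in N_12 replicates 1 and 2. The groups did not overlap, and the pairs of replicates lay close together. Its log2 fold change was -1.09 (SE 0.13, 95% interval -1.39 to -0.79, adjusted p = 0.00986 by edgeR). INSIG2 (ENSG00000125629), the less abundant relative, was present at 53.5 and 49.1 CPM in DMSO replicates 1 and 2, and at 19.3 and 16.4 CPM in N_12 replicates 1 and 2. Again the groups did not overlap, and the log2 fold change was -1.52 (SE 0.17, interval -1.91 to -1.14, adjusted p = 0.00649 by edgeR). Per kilobase of the longest annotated transcript, INSIG1 stood at 183 CPM per kb in DMSO and INSIG2 at 16.1. Both calls held without DMSO replicate 1 (adjusted p = 0.0120 and 0.00402) and without DMSO replicate 2 (0.00389 and 0.00268). They ended without N_12 replicate 1 (adjusted p = 0.126 for INSIG1 and 0.102 for INSIG2) and without N_12 replicate 2 (0.128 and 0.124), where edgeR called 0 genes in the whole table although 2855 and 2763 had an unadjusted p under 0.05. The fold changes themselves moved little, from -1.173 to -1.004 for INSIG1 and from -1.66 to -1.41 for INSIG2 over the 4 fits that leave a library out. Both calls also ended with GC and length correction and a replicate block together (0.0874 and 0.0856). The other 12 of 15 alternative settings kept both calls, and over all 15 the adjusted p ran from 4.02e-11 to 0.128 for INSIG1 and from 9.05e-14 to 0.124 for INSIG2.

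**Figure D2:**
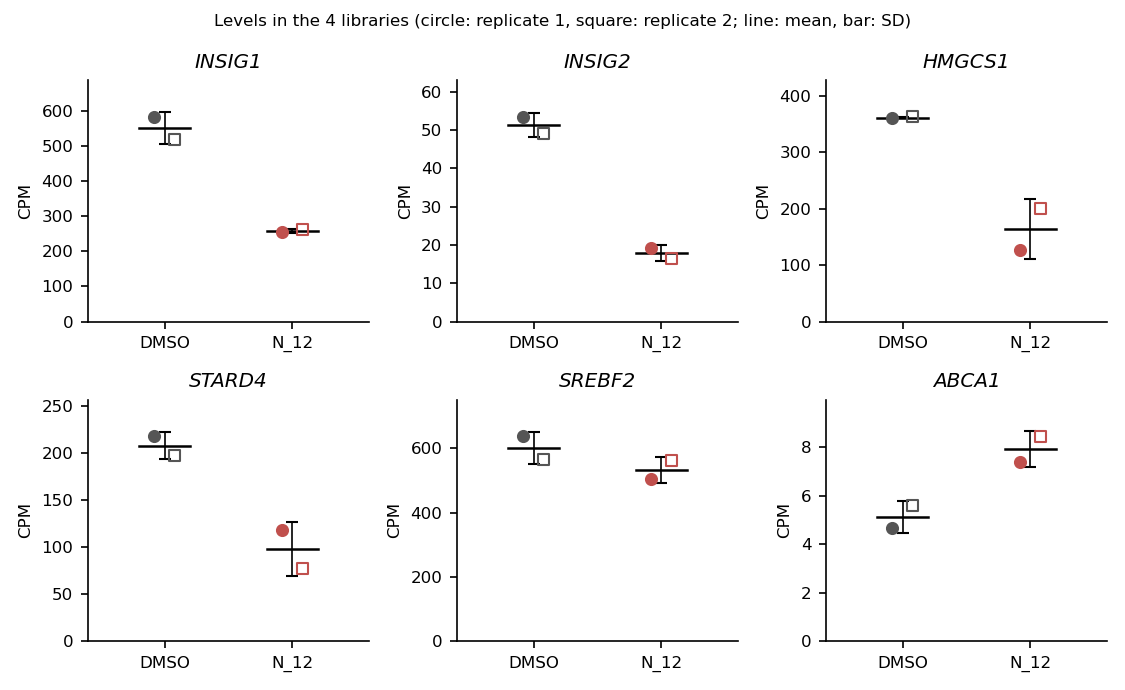
CPM (y axis, from 0) of 6 genes in DMSO and N_12; points are libraries, the line is the mean and the bar the SD of 2. INSIG1, INSIG2, HMGCS1 and STARD4 separate widely, SREBF2 by less than its 2 DMSO libraries differ from each other, and ABCA1 is higher in N_12 at under 9 CPM.

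The other 5 genes of the SREBP machinery were not called, and their log2 fold changes lay between -0.17 and 0.33. SREBF2, which encodes SREBP2 itself, was at 638 and 567 CPM in the DMSO libraries and 505 and 562 CPM in the N_12 libraries, a log2 fold change of -0.17 with an interval from -0.48 to 0.14. The nearest libraries of the 2 groups were almost level. SREBF1, which encodes the related SREBP1 of fatty acid synthesis and is also an LXR target, was at 479 and 421 CPM in DMSO and 413 and 503 CPM in N_12, with overlapping groups (0.03, interval -0.32 to 0.37). Its sign reversed without DMSO replicate 2, without N_12 replicate 2 and with a correction for GC content and length. SCAP, the escort, was at 79.8 and 73.8 CPM in DMSO and 76.6 and 103 CPM in N_12; N_12 replicate 1 lay between the DMSO libraries and replicate 2 above them (0.23, interval -0.17 to 0.62), and without that replicate the value was -0.0070. The Golgi protease gene MBTPS1 was at 235 and 229 CPM in DMSO and 292 and 289.9 CPM in N_12. Its groups did not overlap and its interval lay above 0 (0.33, 0.04 to 0.61), but edgeR did not call it (adjusted p = 0.180). For MBTPS2, the gene of the protease that makes the next cut, the values were 25.4 and 26.3 CPM in DMSO and 31.2 and 26.6 CPM in N_12 (0.16, interval -0.21 to 0.53). These intervals allow changes in either direction for SREBF1, SREBF2, SCAP and MBTPS2, and do not show that they stayed the same. YY2 lies on exons of MBTPS2 (13.4% of its exon bases are shared with other genes), so reads of the 2 may not be separable.

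The 3 sterol transport genes all had lower means in N_12. edgeR called none of them. STARD4 and NPC2 were each called lower by DESeq2 and with a correction for GC content and length. Over all tested genes these 2 settings called 4.61% and 3.31% lower. STARD4 (ENSG00000164211) was at 218 and 198 CPM in DMSO replicates 1 and 2, and at 118 and 77.6 CPM in N_12 replicates 1 and 2. The N_12 libraries differed from each other by 1.52 times, yet both lay far below DMSO. Its log2 fold change was -1.08 (SE 0.21, interval -1.58 to -0.59, adjusted p = 0.0520 by edgeR), just short of the threshold, and it was called in 8 of 15 alternative settings, among them without DMSO replicate 2 (adjusted p = 0.0380); over all 15 its adjusted p ran from 4.02e-06 to 0.148. NPC2, the soluble protein that takes cholesterol from the lysosome lumen, was at 144 and 141 CPM in DMSO and 101 and 91.3 CPM in N_12 (-0.57, SE 0.13, adjusted p = 0.0716 by edgeR). Over the 15 alternatives its adjusted p ran from 0.00424 to 0.275, with 2 calls. Its membrane partner NPC1 was at 194 and 181 CPM in DMSO and 169 and 176 CPM in N_12 (-0.12, interval -0.42 to 0.17). The groups of all 3 transport genes did not overlap, as was so for 26.8% of all tested genes in the lower direction.

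Among the 7 enzymes from acetyl-CoA to farnesyl diphosphate the first step and the next stood apart. ACAT2, the thiolase of the first step, was at 40.7 and 40.1 CPM in DMSO and 41.5 and 42.3 CPM in N_12 (0.05, interval -0.29 to 0.39). Of its exon bases 52.3% are shared with genes on the other strand, among them TCP1, and the strand setting of the counts is not given in the sources used here. HMGCS1 (ENSG00000112972) was at 360.3 and 363 CPM in DMSO replicates 1 and 2, and at 127 and 201 CPM in N_12 replicates 1 and 2. The DMSO libraries agreed closely while the N_12 libraries differed by 1.58 times, and both N_12 libraries were well below DMSO. Its log2 fold change of -1.14 (SE 0.22, interval -1.67 to -0.61) missed the threshold with an adjusted p = 0.0569 by edgeR, and it was called in 3 of 15 alternatives, with genes of at least 5 CPM only (adjusted p = 0.0492), by DESeq2 (0.000121) and with a replicate block (4.3e-07). Over the 15 its adjusted p ran from 4.3e-07 to 0.147.

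Downstream of HMG-CoA edgeR called none of the 5 enzymes, and DESeq2 and limma-voom none; with a replicate block IDI1 was called lower (adjusted p = 0.0424). MVK was at 36.9 and 33.1 CPM in DMSO and 27.2 and 31.7 CPM in N_12 (-0.25, interval -0.63 to 0.13). PMVK, the next kinase, was at 27.9 and 25.95 CPM in DMSO and 18.4 and 23.5 CPM in N_12 (-0.36, interval -0.77 to 0.05). For both kinases the groups did not overlap, but the gap between the nearest libraries was small. For MVD, which removes carbon dioxide to give isopentenyl diphosphate, N_12 replicate 1 was low at 122 CPM, whereas replicate 2 at 163 CPM lay between the DMSO values of 195 and 162 CPM (-0.32, interval -0.74 to 0.09). IDI1, the isomerase of that unit, had the lowest log2 fold change of these 5 and unequal N_12 libraries. It was at 309 and 282 CPM in DMSO and 235 and 166 CPM in N_12 (-0.56, SE 0.18, adjusted p = 0.138 by edgeR). FDPS, which joins the units to farnesyl diphosphate, was at 256 and 238 CPM in DMSO and 195 and 201 CPM in N_12 (-0.32, interval -0.61 to -0.03). The N_12 group lay wholly below the DMSO group for 5 of the 7 mevalonate genes (26.8% of all tested genes). The counts of FDPS are uncertain, since GENCODE names 8 pseudogenes of it. Exon bases of FDPS (18.6%) and IDI1 (14.8%) are also shared with genes on the other strand.

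Of the 12 enzymes from squalene to cholesterol the 4 with the lowest log2 fold changes were MSMO1, HSD17B7, EBP and SC5D. They act after lanosterol, as do all of the 12 but FDFT1, SQLE and LSS. edgeR called none of the 12, and DESeq2 called MSMO1, HSD17B7 and EBP lower (4.61% of all tested genes). MSMO1, the oxidase that starts removal of a methyl pair from the sterol ring, was at 450.4 and 385 CPM in DMSO and 294 and 188 CPM in N_12. Both N_12 libraries were below DMSO, but they differed from each other by 1.56 times (-0.79, SE 0.23, adjusted p = 0.123 by edgeR, 0.0153 by DESeq2 and 0.00107 with a replicate block). HSD17B7, the ketoreductase of the same demethylation, was at 34.2 and 32.9 CPM in DMSO and 22.5 and 22.4 CPM in N_12, with narrow pairs in both groups (-0.58, SE 0.15, adjusted p = 0.0892); it has 2 named pseudogenes. NSDHL, the dehydrogenase between them, was close to level at 38.5 and 39.6 CPM and 34.97 and 38.3 CPM (-0.09, interval -0.44 to 0.26). Of these 3 genes, NSDHL had the narrowest gap between the groups. EBP, the isomerase that moves a ring double bond, was at 105 and 89.7 CPM in DMSO and 61.6 and 71.2 CPM in N_12 (-0.55, SE 0.15, adjusted p = 0.103 by edgeR). SC5D, the following desaturase, was at 35.5 and 34.05 CPM in DMSO and 27.8 and 20.9 CPM in N_12 (-0.52, interval -0.94 to -0.09). DHCR7, the reductase of the final step in one branch, had 152 and 138 CPM in DMSO and 107 and 135 CPM in N_12, where replicate 2 nearly reached the lower DMSO library (-0.26, interval -0.62 to 0.10).

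Neither edgeR nor DESeq2 called any of the other 6 enzymes of this stretch. FDFT1, which makes squalene, was at 251 and 243 CPM in DMSO and 205 and 205 CPM in N_12 (-0.27, interval -0.55 to 0.02). SQLE, the epoxidase and a control point of the route, was at 161 and 191 CPM in DMSO and 149.9 and 114 CPM in N_12 (-0.42, interval -0.81 to -0.02). For both, the N_12 libraries lay below the DMSO libraries, SQLE with the wider spread. LSS, which closes the ring to lanosterol, was the synthesis gene with the highest log2 fold change, 0.26, but its DMSO libraries of 140.4 and 95.9 CPM enclosed 1 of the N_12 values of 126 and 157 CPM (interval -0.24 to 0.75). CYP51A1, the first demethylase after lanosterol, was at 204 and 158 CPM in DMSO and 153 and 137 CPM in N_12 (-0.32, interval -0.69 to 0.05); 83.2% of its exon bases are shared with other annotated genes, so its counts depend on how reads were assigned. The sterol reductases TM7SF2 (39.6 and 37.8 CPM in DMSO, 35.7 and 47.3 CPM in N_12) and LBR (133 and 126 CPM in DMSO, 141 and 105 CPM in N_12), which act on the same intermediate, had overlapping groups. Their log2 fold changes were 0.10 and -0.07, and each changed sign without N_12 replicate 2 (-0.12 and 0.12).

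As a group, the 19 synthesis genes had a median log2 fold change of -0.32, against 0.01 over all tested genes, and a range from -1.14 to 0.26. Negative values were found for 16 of 19 (49% of all tested genes), and in 14 the N_12 group lay wholly below the DMSO group (26.8% of all tested genes). edgeR called 0 of 19 and limma-voom 0. DESeq2 called 4 lower (HMGCS1, MSMO1, HSD17B7 and EBP), against 4.61% of all tested genes. In edgeR 8 had an unadjusted p under 0.05, all lower (10.8% of all tested genes). The medians were -0.32 for the 7 mevalonate steps and -0.29 for the 12 later steps. The geometric mean level over the 19 genes was 109 and 99.8 CPM in the DMSO libraries and 81.1 and 82.8 CPM in the N_12 libraries. Summed, their transcripts made up 2969 and 2715 CPM in DMSO and 2124 and 2069.9 CPM in N_12. The median was smallest in size without DMSO replicate 1 (-0.24) and largest without DMSO replicate 2 (-0.37). Members share libraries and are not replicates of the treatment, so these are descriptions.

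**Figure D3:**
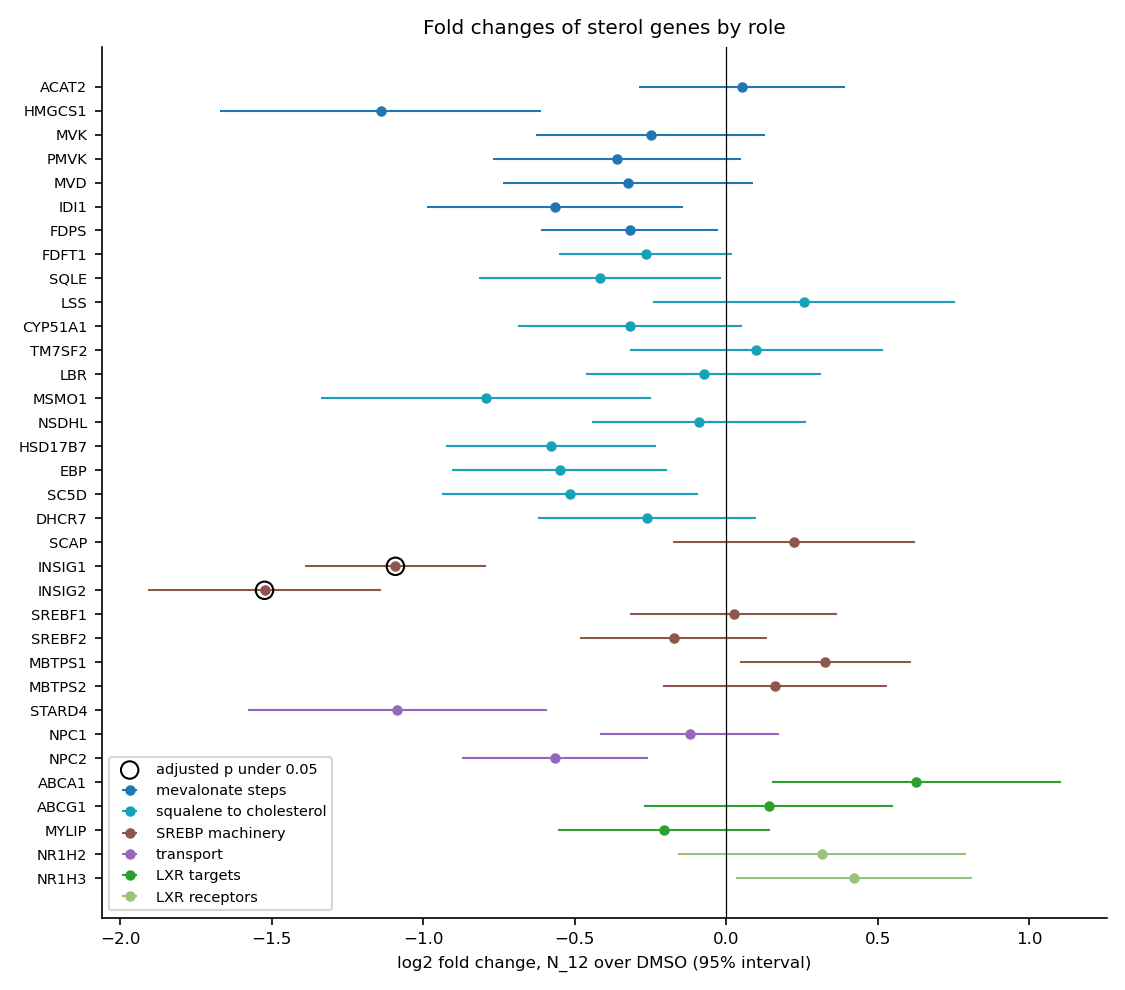
Log2 fold change of N_12 over DMSO (x axis, points) with 95% intervals (bars) for the 34 genes, coloured by role; rings mark an adjusted p under 0.05. INSIG1 and INSIG2 are ringed, 8 synthesis genes have intervals wholly below 0, and ABCA1, NR1H3 and MBTPS1 have intervals wholly above 0.

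In the LXR arm 4 of 5 genes had positive log2 fold changes, as did 7190 of all 14105 tested genes, and edgeR called none. ABCA1 (ENSG00000165029), which loads cholesterol onto apolipoprotein, was at 4.66 and 5.58 CPM in DMSO replicates 1 and 2, and at 7.38 and 8.44 CPM in N_12 replicates 1 and 2, from counts of 142, 164, 311 and 344. All N_12 values were above all DMSO values, as for 27.9% of all tested genes, and the log2 fold change was 0.63 (SE 0.21, interval 0.15 to 1.11, adjusted p = 0.141 by edgeR). ABCG1, the exporter to formed lipoprotein particles, was at 14.4 and 12.9 CPM in DMSO and 14.1 and 16.1 CPM in N_12, with overlapping groups (0.14, interval -0.27 to 0.55). Those of the exporter ABCG1 thus ran into each other, unlike those of ABCA1. MYLIP was at 33.4 and 36.02 CPM in DMSO and 30.8 and 29.5 CPM in N_12 (-0.20, interval -0.56 to 0.15). The receptor gene NR1H3, itself an LXR target in some cells, was at 14.6 and 13.6 CPM in DMSO and 17.9 and 19.9 CPM in N_12 (0.42, interval 0.03 to 0.81, adjusted p = 0.201 by edgeR). NR1H2 was at 42.4 and 35.6 CPM in DMSO and 40.1 and 57.01 CPM in N_12, the second N_12 library alone standing clear of DMSO (0.32, interval -0.16 to 0.79). Of the 5 genes edgeR, DESeq2 and limma-voom each called 0, and 2 (ABCA1 and NR1H3) had an unadjusted p under 0.05 in edgeR, both higher (11% of all tested genes).

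The medians of the synthesis and LXR genes differed in sign, while 3 of 19 synthesis genes (LSS, TM7SF2 and ACAT2) lay above 0 and 1 of 5 LXR genes (MYLIP) below. The median of the 5 LXR genes was 0.32, against -0.32 for the 19 synthesis genes, and became 0.039 without N_12 replicate 2, when the synthesis median was -0.34. The geometric mean of the LXR genes was 16.9 and 16.6 CPM in DMSO and 18.7 and 21.5 CPM in N_12. The ratio of the synthesis mean to the LXR mean was 6.41 and 6.01 in the DMSO libraries and 4.33 and 3.86 in the N_12 libraries, so the groups did not overlap. With 2 libraries per group a two-sided exact permutation test cannot give a p below 0.333, so none was run on this ratio. The median of 0.32 over the 5 LXR genes was the value of the receptor gene NR1H2. Among the 3 LXR targets alone the median was 0.14, with ABCA1 and MYLIP on opposite sides of 0. The geometric mean of these targets was 13.1 and 13.7 CPM in DMSO and 14.7 and 15.9 CPM in N_12.

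**Figure D4:**
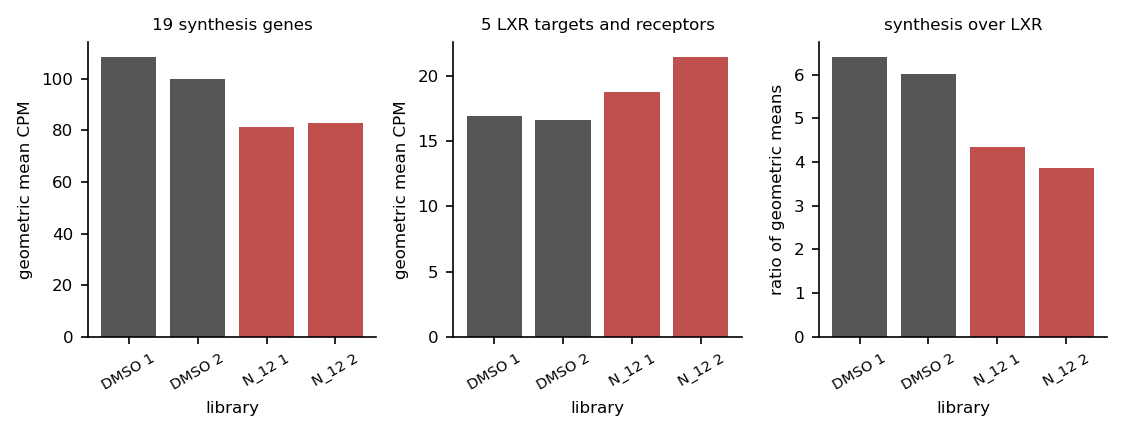
Geometric mean CPM (bars from 0) of the 19 synthesis genes, of the 5 LXR genes, and the ratio of the 2, in each of the 4 libraries. The synthesis mean is 81.1 and 82.8 CPM in N_12 against 109 and 99.8 in DMSO, and the ratio is 4.33 and 3.86 against 6.41 and 6.01.

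Compared per kilobase of the longest transcript, so that genes of different length can be ranked, the most abundant members in DMSO were MSMO1 (184 CPM per kb), INSIG1 (183), FDPS (122), SREBF2 (106) and HMGCS1 (103). The least abundant were MVK (8.51), MBTPS2 (5.80), NR1H3 (5.16), ABCG1 (3.94) and ABCA1 (0.488). In N_12 MSMO1 stood at 106, INSIG1 at 85.98 and HMGCS1 at 46.8 CPM per kb, beside FDPS at 98.1 and SREBF1 at 98.4.

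The 2 N_12 libraries were within 1.5 times of each other for 31 of the 34 genes (all but HMGCS1, MSMO1 and STARD4), and the 2 DMSO libraries for 34. GC content moved with the difference between the N_12 libraries. Across the 34 members the log2 ratio of N_12 replicate 2 to replicate 1 had a Spearman correlation of 0.81 with the GC content of the longest transcript, against 0.57 across 14089 tested genes. The same correlation for the 2 DMSO libraries was -0.34 across members and -0.35 across all tested genes. All points share the same libraries, and genes are not independent replicates. AT-rich members such as STARD4 (34.2% GC), MSMO1 (38.1%) and IDI1 (41.1%) were lower in N_12 replicate 2, and GC-rich ones such as NR1H2 (60.9%) and SCAP (62.3%) were higher. HMGCS1, at 40.2% GC, went against this, being 1.58 times higher in replicate 2. The fold change of N_12 over DMSO had a correlation with GC of 0.48 across members and of 0.01 across all tested genes. With a correction for GC content and length the synthesis median was -0.30 and the LXR median 0.31, edgeR called 0 synthesis and 0 LXR genes, and 4 members were called lower (3.31% of all tested genes): INSIG1 (adjusted p = 0.0176), INSIG2 (0.0153), STARD4 (0.0243) and NPC2 (0.0430). With a replicate block added to that correction none of the 4 was called.

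**Figure D5:**
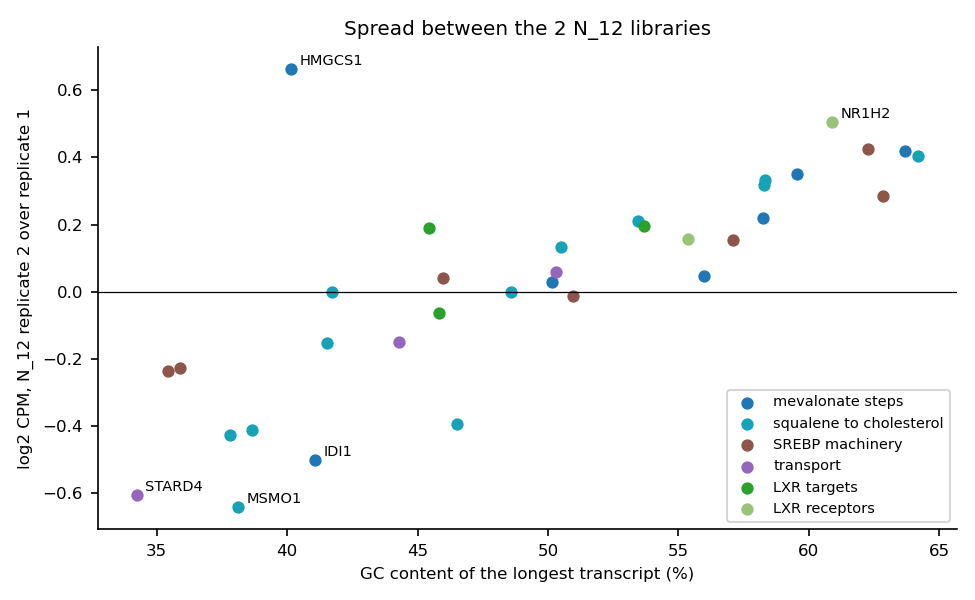
Each point is 1 of the 34 genes; the x axis is the GC content of its longest transcript and the y axis the log2 ratio of CPM in N_12 replicate 2 over replicate 1. Points lie higher to the right (Spearman 0.81), with HMGCS1 far above the others of its GC content.

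Beyond the 34 genes, of 78 tested genes in 6 further lists of sterol, isoprenoid and lipid metabolism edgeR called 0 and limma-voom 0, DESeq2 called 4 higher and 2 lower (3.81% and 4.61% of all tested genes), and the correction for GC content and length gave 3 higher and 2 lower (2.66% and 3.31%). Among 17 enzymes of isoprenoid use 2 had an unadjusted p under 0.05, both higher, and the smallest p was that of PDSS1, of coenzyme Q side chain synthesis (0.67, interval 0.20 to 1.13). Of 16 genes of sterol sensing and enzyme degradation in the endoplasmic reticulum 2 had such a p, both higher, led by the VCP cofactor NPLOC4 (213 and 220.2 CPM in DMSO, 304 and 312 CPM in N_12, 0.51, adjusted p = 0.0775 by edgeR). Of 16 genes of sterol storage and trafficking 1 was higher and 2 lower, led by the lysosomal lipase LIPA (-0.54, interval -0.89 to -0.18). These shares may be read against 11% higher and 10.8% lower over all tested genes.

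Genes that SREBP1 drives for fatty acid synthesis had a median of 0.11 over 15 genes, with 4 at an unadjusted p under 0.05 in the higher direction and 1 in the lower (11% and 10.8% of all tested genes, as for the lists that follow). ACACA, the acetyl-CoA carboxylase, led them at 125 and 145 CPM in DMSO and 199 and 262 CPM in N_12 (0.77, SE 0.17, adjusted p = 0.0608 by edgeR). Of 12 further genes of the LXR system 9 could be tested, with a median of 0.32, 4 at such a p higher and 1 lower. LPCAT3, a phospholipid-remodelling LXR target, led them at 54.4 and 61.3 CPM in DMSO and 92.4 and 95.01 CPM in N_12 (0.70, SE 0.14, adjusted p = 0.0518 by edgeR), and was called in 6 of 15 alternatives. All 5 testable genes of oxysterol and related metabolism had negative values (49% of all tested genes). Among them 1 had such a p, the EBP relative EBPL (-0.60, interval -0.99 to -0.21).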

How the data were processed

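mRNA of HCT116 cells was sequenced in 2 DMSO and 2 N_12 libraries; groups and replicate numbers come from the sample titles. The authors deposited 1 table of raw counts of reads per gene, not normalized. The labels state neither aligner, counter nor strand setting; GRCm38 and mm10, builds of the mouse genome, stand in the submitters' processing notes, whereas the identifiers are human. Symbols were assigned to 20148 of 20263 identifiers. Counts were fitted over the whole table in R 4.3.3 with edgeR 4.0.16 (TMM factors 0.98 to 1.02, edgeR's expression filter, robust quasi-likelihood, no replicate term), and p-values were adjusted over all 14105 tested genes at a threshold of 0.05, two-sided. Standard errors were taken from the fold change and F statistic, and intervals are 95% intervals. Transcript length and GC content (fitted by loess with a span of 0.3 for the correction) are those of the longest GENCODE transcript, and 0.1 CPM was added before log ratios of replicates. A chi-square test of counts between replicates gave 36.5 per degree of freedom in DMSO and 57.2 in N_12, where sampling noise alone gives about 1, so no library was merged.

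The members, the other gene lists and the alternatives were chosen with earlier results of these data known. All 34 members are named; of each further list the called genes, or the gene with the smallest p where none was called, are named. Alternatives were other scalings and filters, a replicate block, correction for GC content and length, limma-voom (limma 3.58.1), DESeq2 1.42.0 without independent filtering, non-robust dispersions and leaving out each library. The procedure was tested on simulated data. Precision is limited by 2 libraries per group.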

Additional observations from a re-analysis of the deposited data

How the results depend on the processing

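Over 15 alternatives, 555 of 600 fold changes of the 34 members and 6 further named genes kept their direction and side of the threshold. Only INSIG1 and INSIG2 were called to begin with, so most of these cases are uncalled genes that stayed uncalled. Signs reversed in 7 cases, all of uncalled genes: without N_12 replicate 2 for TM7SF2 (-0.12, where leaving out 1 library gave values up to 0.27), LBR (0.12, down to -0.32), SCAP (-0.0070, up to 0.41) and SREBF1 (-0.13, up to 0.15). SREBF1 also reversed without DMSO replicate 2 (-0.07) and with GC and length correction, without and with a replicate block (-0.047 and -0.047). All genes called (317) became 841 with GC and length correction, 131 with limma-voom, 131 without robust dispersions, 1187 with DESeq2, and 0 to 451 when 1 library was left out. Synthesis genes called (0) became 1 with a minimum of 5 CPM and 4 with DESeq2. SREBP machinery and transport genes called (2) became 4 with GC and length correction, 4 with DESeq2, and 0 to 3 when 1 library was left out. The synthesis median lay between -0.37 and -0.24, and the LXR median between 0.039 and 0.48, when 1 library was left out. Where an N_12 library was left out, the lone remaining one was assumed to vary like the DMSO group. The causes were not tested. LXR genes called were 0 in all 15.

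Replicate numbers are shared by the groups but no label says that they pair samples, and the deviations of same-numbered libraries had a correlation of -0.087. With the replicate block 963 genes were called in all and 3 synthesis genes (HMGCS1, IDI1 and MSMO1); with the block and GC and length correction together 1 gene was called in all and 0 of the SREBP machinery and transport genes, INSIG1 (adjusted p = 0.0874) and INSIG2 (0.0856) included. Depth does not limit most members, the lowest count being 142, of ABCA1.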
